A study of Mus musculus with 10 samples.

Results

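The 31 genes described here were taken as a named list of p53 target genes, and they were followed in Emu-myc mouse lymphomas given Adriamycin (ADR, doxorubicin). Whether p53 acts on each of them in mouse cells was not tested. Each gene was represented by its single-symbol probe set with the highest mean signal over the 10 arrays. Of the 31 genes, 28 had a signal above the filter on low values, out of 11472 genes tested and 18193 genes with a probe set. Perp, Tnfrsf10b and Eda2r stayed below the filter and are given by their values only.

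RNA was measured in 2 groups of 5 arrays. The ADR group had received the drug at 0.05 µg/ml over 5 days, and the untreated group held cells of the same lymphomas without it. Every one of the 5 lymphomas (lymphoma_5783, lymphoma_7890, lymphoma_9250, lymphoma_1032 and lymphoma_4936) arose in a different Emu-myc;Suv39h1-/- mouse and gave 1 array per treatment. Cells of both groups carried the Emu-driven Myc transgene, which is active in the B lineage, lacked Suv39h1, a histone H3 lysine 9 methyltransferase, and had been infected with a retroviral Bcl2 (MSCVpuro) and selected with puromycin. Both groups grew on gamma-irradiated NIH 3T3 fibroblasts, so that the cultures held feeder cells as well as lymphoma cells. Suv39h1 and Trp53 are not analysed here, and the genotype and the p53 status of the lymphomas were therefore not checked. P-values for ADR rest on how far the difference of ADR minus untreated varied between the 5 lymphomas. The test of differences between lymphomas uses that same spread.

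The p53 protein is a transcription factor that is held at a low level by the ubiquitin ligase Mdm2 and is stabilised when kinases such as Atm and Chek2 signal DNA damage. It then binds response elements near its targets, which act in cell cycle arrest, apoptosis, DNA repair, metabolism and in the feedback that switches p53 off again. Adriamycin breaks DNA by trapping topoisomerase II, and Bcl2 blocks the mitochondrial route of apoptosis downstream of p53. In Emu-myc lymphomas the p53 pathway is a well-known barrier to tumour growth and is often lost.

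Whole-series facts that touch these genes are few. Of the 11 B-cell markers with a probe set, 9 or 10 were above the table median on every array, and Ms4a1 (CD20) was low in lymphoma_1032, with 4.79 in ADR and 5.09 in untreated cells. The log2 of the summed B-cell marker signal lay between 12.30 and 13.84 in ADR and between 12.39 and 13.80 in untreated cells. The macrophage markers lay between 10.45 and 15.15 in ADR and between 9.92 and 14.33 in untreated cells, and the fibroblast markers between 10.58 and 13.19 in ADR and between 9.99 and 12.35 in untreated cells. The T-cell markers lay between 8.59 and 10.92 in ADR and between 8.14 and 11.46 in untreated cells. Their highest sums were those of lymphoma_1032 and rested mostly on Cd5, with 10.71 in ADR and 11.26 in untreated cells. The next highest T-cell marker there was Cd28, with 6.46 and 7.35. The array signals have no true zero, so no marker was at 0. The median signal of the ADR array of lymphoma_1032 was 4.15, below the 4.43 to 4.50 of the other arrays. In bulk RNA, fewer cells of a type and less RNA per cell cannot be told apart.

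No p53 target gene passed the threshold for a difference between ADR and untreated cells. In the paired limma fit 0 of the 28 tested members, and 0% of all genes tested, had an adjusted p below 0.05, and the smallest adjusted p of a member was 0.565. At an unadjusted p below 0.05 the limma fit had 12 members higher in ADR, which is 42.9% of the members against 3.97% of all genes, and 1 member lower, Pmaip1, which is 3.57% of the members against 4.52% of all genes. On average over the 5 lymphomas 24 members were higher in ADR and 4 were lower (Pmaip1, Apaf1, Rrm2b and Ddb2), whereas 44.8% of all genes were higher. The median difference of ADR minus untreated, a log2 difference, was 0.36 over the 28 members and -0.02 over all genes tested. The 12 became 6 without lymphoma_7890, against 3.36% of all genes, and 5 without lymphoma_9250, against 3.68%. In a fit without the lymphoma as a block the 12 became 1, against 0.54% of all genes. Since the members were chosen with earlier results of these data known, these shares are descriptions and carry no test.

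The genes that were higher in ADR in all 5 lymphomas were Ccng1, Ei24, Fas, Phlda3, Zmat3, Ercc5, Dcxr and Rps27l. These were 8 of the 28 tested members, or 28.6%, against 4.67% of all genes tested. In none of the members did every ADR array lie above every untreated array (0 members, against 0.0872% of all genes).

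**Figure D1:**
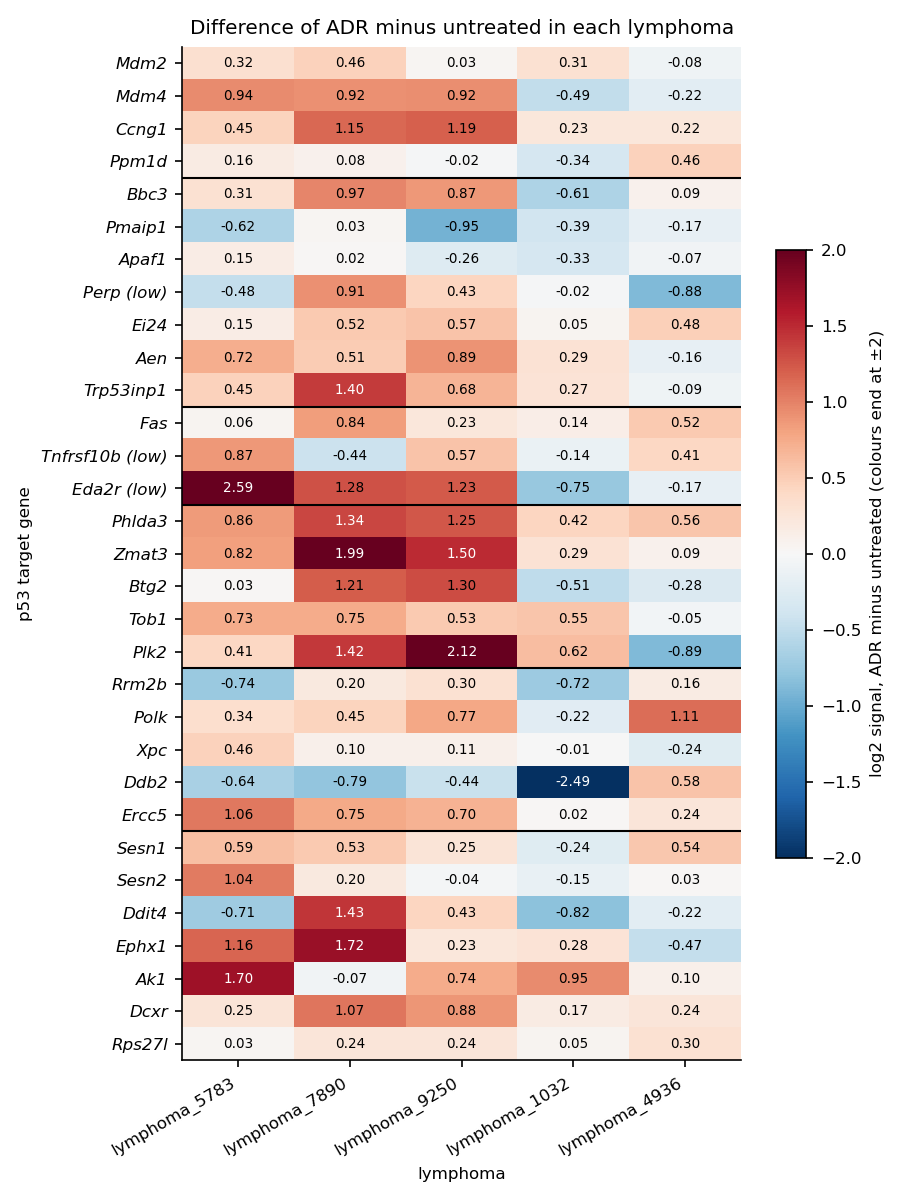
Log2 difference of ADR minus untreated for each of the 31 p53 target genes (rows, grouped by role with black lines between roles) in each of the 5 lymphomas (columns); red is higher and blue is lower in ADR, and "low" marks the 3 genes below the filter. Most genes are red in the columns of lymphoma_5783, lymphoma_7890 and lymphoma_9250, where 24, 26 and 23 of the 28 tested genes are higher in ADR, against 15 in lymphoma_1032 and 16 in lymphoma_4936. Of all genes tested, 53.7%, 48.4% and 47.0% are higher in the first 3 columns, against 34.4% in lymphoma_1032 and 56.4% in lymphoma_4936.

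The lymphomas differed in how far the p53 targets stood apart from the other genes. The median member difference was 0.64 in lymphoma_7890, 0.55 in lymphoma_9250 and 0.37 in lymphoma_5783, but 0.04 in lymphoma_1032 and 0.09 in lymphoma_4936. The median over all genes tested was -0.01, -0.02, 0.04, -0.17 and 0.06 in the same order. Of the 28 members, 26 were higher in ADR in lymphoma_7890, 24 in lymphoma_5783 and 23 in lymphoma_9250, but 16 in lymphoma_4936 and 15 in lymphoma_1032. Relative to the share of all genes that were higher, which was 48.4% in lymphoma_7890, 53.7% in lymphoma_5783, 47.0% in lymphoma_9250, 56.4% in lymphoma_4936 and 34.4% in lymphoma_1032, lymphoma_4936 stood closest to its background. A difference between lymphomas in the response to ADR cannot be tested, since each lymphoma has 1 array per treatment.

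**Figure D2:**
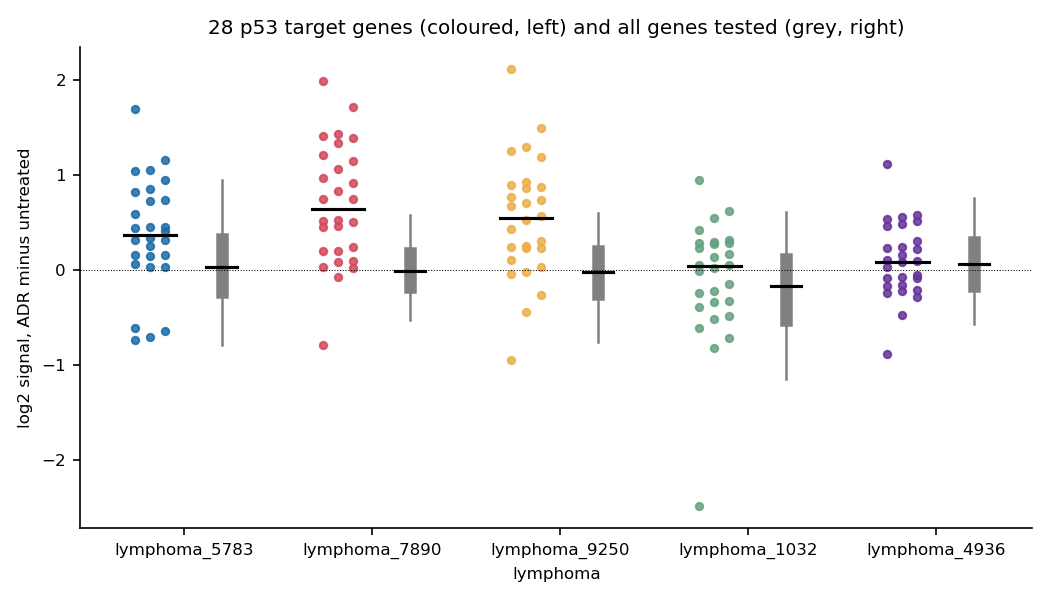
Log2 difference of ADR minus untreated in each lymphoma for the 28 tested p53 target genes (coloured points, 1 per gene, with a black bar at the median) and for all 11472 genes tested (grey box from the lower to the upper quartile, thin line from the 5th to the 95th percentile, black bar at the median). The member median stands above the median of all genes by 0.65 in lymphoma_7890 and 0.57 in lymphoma_9250 and by 0.03 in lymphoma_4936.

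A signal higher in ADR by at least 1 on the log2 scale, that is 2-fold or more, was seen for 13 members (46.4%) in at least 1 lymphoma, against 8.52% of all genes, and for 6 members (21.4%) in 2 or more, against 1.73%. It was seen for 9 members in lymphoma_7890 (Ccng1, Trp53inp1, Phlda3, Zmat3, Btg2, Plk2, Ddit4, Ephx1 and Dcxr), where 1.14% of all genes reached it. In lymphoma_9250 it was seen for Ccng1, Phlda3, Zmat3, Btg2 and Plk2, against 1.06% of all genes, and these 5 are all among the 9 of lymphoma_7890. Over all genes tested, 29 genes reached it in both lymphomas, 22.1% of the 131 in lymphoma_7890 and 23.8% of the 122 in lymphoma_9250. The 4 members that reached it in lymphoma_5783 were Ercc5, Sesn2, Ephx1 and Ak1, against 4.60% of all genes there, and 1 of them, Ephx1, was among the 9 of lymphoma_7890. Over all genes tested, 37 were shared by these lymphomas, 7.01% of the 528 in lymphoma_5783 and 28.2% of the 131 in lymphoma_7890. In lymphoma_4936 Polk alone reached it, against 2.19% of all genes, and in lymphoma_1032 0 members did, against 1.61%. Ddb2 alone of the members was lower in lymphoma_1032 by more than 2-fold. The 5th percentile of the log2 differences of all genes tested was -1.15 there, so more than 5% of all genes were lower by more than 2-fold too.

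Some members carry all or part of the p53 recognition sequence close to an annotated start site, and some of those promoters are shown here. Rps27l, Ccng1 and Ei24 were higher in ADR in all 5 lymphomas, Mdm2 is the feedback regulator, and Sesn1 holds a paired element. Sequences are from RefSeq on GRCm38.p6, from 250 bases before to 50 bases after each annotated start, and 23 of the 31 members were matched by symbol. A p53 response element consists of a pair of 10-base decamers, each with the p53 consensus around a core of C, A or T, A or T, and G, which reads the same on both strands. Capitals mark decamers, with 20 bases or fewer on either side.
Rps27l: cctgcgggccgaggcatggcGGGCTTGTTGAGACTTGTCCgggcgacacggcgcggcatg
Sesn1: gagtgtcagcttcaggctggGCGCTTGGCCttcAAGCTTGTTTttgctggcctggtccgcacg
Ccng1: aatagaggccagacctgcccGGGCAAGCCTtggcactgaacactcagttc
Ei24: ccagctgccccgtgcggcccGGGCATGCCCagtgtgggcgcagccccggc
Mdm2: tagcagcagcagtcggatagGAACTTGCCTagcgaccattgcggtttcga
The Rps27l stretch lies on the plus strand at chr9:66946276-66946335 and its paired element begins at position -117 from the annotated start, with no spacer and 1 mismatch to the consensus. A further pairing of decamers in this promoter overlaps it, from position -126 with a spacer of 9 bases and 2 mismatches, and a single decamer without mismatch lies at -210. The Sesn1 stretch lies on the plus strand at chr10:41887233-41887295, with its element at position -186, a spacer of 3 bases and 2 mismatches. The stretches of Ccng1 (chr11:40755442-40755491, decamer at -185), Ei24 (chr9:36797315-36797364, decamer at -10) and Mdm2 (chr10:117710915-117710964, decamer at -186) are on the minus strand and hold a single decamer without mismatch.
Genes were counted if the window of any of their annotated starts held a match. A paired element here had both cores intact, at most 2 mismatches and a spacer of at most 13 bases. It was found in 2 of the 23 genes, Rps27l and Sesn1, and in 2.47% of 27025 genes. In both Rps27l and Sesn1 it lay at 1 of 2 annotated starts. A single decamer without mismatch was found in 8 of the 23 (Mdm2, Ccng1, Ppm1d, Ei24, Aen, Polk, Sesn1 and Rps27l) and in 9.55% of the 27025. Of the other genes that were higher in ADR in all 5 lymphomas, Fas, Phlda3, Ercc5 and Dcxr held neither. Zmat3 was not among the 23. Mdm2, Ppm1d, Aen, Polk and Sesn1 hold a decamer and were not higher in all 5 lymphomas. These matches are descriptions of the letters in this window and do not show binding.

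Of 21 further probe sets of the members above the filter, 18 had a mean difference of the same sign as the one used and 3 the opposite, 1 each of Mdm4, Ppm1d and Tob1.

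Of the 4 genes that feed back on p53, all 4 were higher in ADR on average, 0 passed the threshold, and the median log2 difference was 0.31. Ccng1, cyclin G1, which recruits a phosphatase to Mdm2, had the largest difference of the 4. Its log2 signals in lymphoma_5783, lymphoma_7890, lymphoma_9250, lymphoma_1032 and lymphoma_4936, the order used from here on, were 11.74, 11.16, 11.49, 11.55 and 10.60 in ADR, against 11.29, 10.01, 10.30, 11.31 and 10.37 in untreated cells. Every lymphoma was higher with ADR, and the 2 lymphomas with the lowest untreated signals differed most, while the ADR signals of lymphoma_7890 and lymphoma_4936 lay within the untreated range. Here and below, the untreated signal is part of each difference, so a low untreated signal by itself tends to give a larger difference. The mean log2 difference was 0.65 ± 0.49 (SD, n = 5; 1.57-fold; limma adjusted p = 0.565).

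Mdm2, the ubiquitin ligase that marks p53 for degradation, differed little with ADR, by 0.21 ± 0.23 (limma adjusted p = 0.631), with differences between -0.08 and 0.46. Its level differed between lymphomas (limma adjusted p = 0.00358): it had signals of 10.51 and 10.71 in ADR and of 10.19 and 10.40 in untreated cells of lymphoma_5783 and lymphoma_1032, whereas the other lymphomas lay between 9.11 and 9.18 in ADR and between 8.69 and 9.26 in untreated cells. Mdm4, the relative of Mdm2 that holds p53 inactive, was higher by 0.94, 0.92 and 0.92 in the first 3 lymphomas and differed by -0.49 and -0.22 in lymphoma_1032 and lymphoma_4936. The mean over the 5 was 0.42 ± 0.71 (limma adjusted p = 0.644), and 1 further Mdm4 probe set above the filter had a mean difference of 0.06 and another of -0.15. Ppm1d, the phosphatase Wip1 that removes the activating phosphates from p53 and Atm, had a mean difference of 0.07 ± 0.29 with differences between -0.34 and 0.46, and its other probe set had -0.21.

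Among the 7 apoptosis effectors, 6 were tested, of which 4 were higher and 2 lower on average in ADR and 0 passed the threshold. Ei24, an endoplasmic reticulum protein first found as a p53-induced gene, had log2 signals of 9.96, 9.52, 9.65, 9.80 and 10.02 in ADR, against 9.80, 9.00, 9.08, 9.75 and 9.54 in untreated cells. It was higher in all 5 lymphomas, by 0.05 to 0.57, with the groups overlapping, and the mean difference was 0.35 ± 0.24 (1.28-fold; limma adjusted p = 0.565). Trp53inp1, a nuclear partner of p53 that also acts in autophagy, had 12.27, 11.73, 12.16, 11.30 and 11.42 in ADR, against 11.82, 10.33, 11.48, 11.03 and 11.51 in untreated cells. The untreated lymphoma_7890 was the lowest of all arrays and differed by 1.40, while lymphoma_4936 was slightly lower with ADR, and the groups overlapped. The mean difference of Trp53inp1 was 0.54 ± 0.55 (limma adjusted p = 0.565), and a second probe set gave 0.15, with -1.08 in lymphoma_1032.

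The BH3-only genes went in different directions. Bbc3, which encodes Puma, an activator of mitochondrial apoptosis, had a mean difference of 0.33 ± 0.64, with 0.97 and 0.87 in lymphoma_7890 and lymphoma_9250 and -0.61 in lymphoma_1032. Pmaip1, which encodes Noxa, a neutraliser of Mcl1, was lower in ADR in 4 of 5 lymphomas, by -0.42 ± 0.38 on average (0.748-fold; limma adjusted p = 0.565), with the lowest value, -0.95, in lymphoma_9250. In that same lymphoma Bbc3 was higher. Apaf1, the scaffold of the apoptosome, had a mean difference of -0.10 ± 0.20. Aen, a nuclease of apoptotic cells, was higher in 4 of 5 lymphomas, by 0.45 ± 0.41 (limma adjusted p = 0.565), and differed by -0.16 in lymphoma_4936.

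Perp, a desmosome-associated membrane protein of p53-dependent apoptosis, had log2 signals of 2.27, 3.31, 3.46, 2.64 and 6.26 in ADR, against 2.75, 2.40, 3.03, 2.65 and 7.14 in untreated cells. Only lymphoma_4936 was above the filter, and it was so on both of its arrays. Its difference there was -0.88.

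Of the 3 death receptors, Fas passed the filter. Fas, whose ligand triggers caspases from the cell surface, had log2 signals of 8.09, 6.92, 6.93, 8.24 and 6.43 in ADR, against 8.03, 6.08, 6.70, 8.11 and 5.91 in untreated cells. It was higher in all 5 lymphomas, by 0.06 to 0.84, but lymphoma_5783 and lymphoma_1032 were high under both treatments and the groups overlapped. The mean difference was 0.36 ± 0.32 (1.28-fold; limma adjusted p = 0.577), smaller than the untreated range of 2.20 between lymphomas. Tnfrsf10b, the mouse Trail receptor, lay between 3.67 and 4.54 in ADR and between 3.64 and 4.28 in untreated cells. Eda2r, the receptor of ectodysplasin A2, had 5.99, 5.14, 4.33, 5.45 and 3.94 in ADR, against 3.40, 3.87, 3.10, 6.20 and 4.11 in untreated cells. Its differences of 2.59, 1.28 and 1.23 in the first 3 lymphomas started from signals below the filter, where a log2 signal is imprecise, and in the other 2 lymphomas it was lower with ADR.

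The 5 genes of growth and survival signalling were all higher on average in ADR, with a median log2 difference of 0.74, the highest of the 6 roles, and 0 passed the threshold. Phlda3, a pleckstrin-homology protein that competes with Akt for membrane lipids, had log2 signals of 9.66, 7.79, 8.27, 8.90 and 8.26 in ADR, against 8.81, 6.45, 7.02, 8.48 and 7.71 in untreated cells. All 5 lymphomas were higher with ADR, none by less than 0.42, and the order of the lymphomas was nearly kept, so the groups overlapped. The mean difference was 0.88 ± 0.41 (1.85-fold; 95% interval 0.50 to 1.27; limma adjusted p = 0.565).

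Zmat3, also called Wig1, a zinc finger protein that binds RNA, had log2 signals of 10.26, 9.34, 9.91, 9.56 and 10.00 in ADR, against 9.44, 7.35, 8.41, 9.27 and 9.91 in untreated cells. Its ADR signals were close together, with a range of 0.92 between lymphomas, against 2.56 in untreated cells, and lymphoma_4936, the highest untreated array, differed least. On average Zmat3 had the largest difference of the tested members, 0.94 ± 0.80 (1.92-fold; 95% interval 0.28 to 1.60; limma adjusted p = 0.565).

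Btg2, an antiproliferative gene that acts through mRNA deadenylation, had log2 signals of 11.37, 10.69, 11.11, 10.15 and 10.12 in ADR, against 11.34, 9.48, 9.82, 10.66 and 10.40 in untreated cells. Lymphoma_7890 and lymphoma_9250 were higher by more than 2-fold, lymphoma_5783 had nearly the same high signal under both treatments, and lymphoma_1032 and lymphoma_4936 were lower with ADR. For Btg2 the mean was 0.35 ± 0.85 (limma adjusted p = 0.730). Tob1, its relative, was higher by 0.53 to 0.75 in 4 lymphomas and differed by -0.05 in lymphoma_4936, a mean of 0.50 ± 0.33 (limma adjusted p = 0.565). A second Tob1 probe set near the filter had a mean difference of -0.12.

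Plk2, a polo-like kinase that p53 induces after DNA damage, had log2 signals of 10.34, 9.29, 9.84, 10.27 and 7.49 in ADR, against 9.94, 7.87, 7.72, 9.64 and 8.37 in untreated cells. The 4 lymphomas other than lymphoma_4936 were higher with ADR, and lymphoma_9250 differed by 2.12, the largest difference upwards of any tested member in any lymphoma. In lymphoma_4936 Plk2 was lower with ADR, by -0.89, and that array was the lowest of the 10. Averaged over the lymphomas, Plk2 differed by 0.74 ± 1.13 (limma adjusted p = 0.603).

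**Figure D3:**
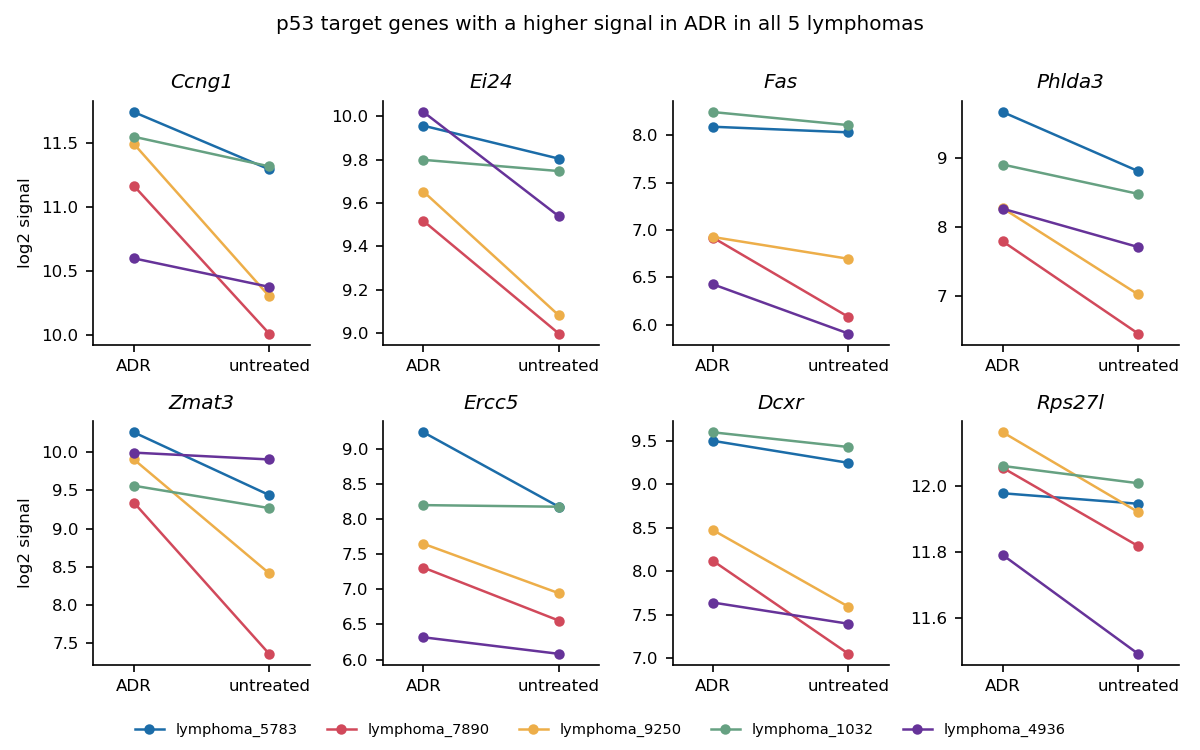
Log2 signals of the 8 p53 target genes that were higher in ADR in all 5 lymphomas, with ADR on the left and untreated on the right of each panel and 1 line per lymphoma; the vertical axes do not start at 0 and differ between panels. In Ccng1, Phlda3, Zmat3 and Dcxr the lines of lymphoma_7890 and lymphoma_9250 are the steepest, with differences from 0.88 to 1.99.

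The 5 genes of DNA repair and nucleotide supply were mixed: 3 were higher and 2 lower on average in ADR, and 0 passed the threshold. Polk, a translesion DNA polymerase, had log2 signals of 8.35, 7.15, 7.80, 8.57 and 6.90 in ADR, against 8.01, 6.70, 7.03, 8.79 and 5.79 in untreated cells. Lymphoma_4936 had the lowest untreated signal and differed most, by 1.11, while lymphoma_1032 was lower with ADR, and the groups overlapped. The Polk mean was 0.49 ± 0.50 (1.40-fold; limma adjusted p = 0.565), and a second probe set gave 0.06. Ercc5, the Xpg endonuclease of nucleotide excision repair, had 9.23, 7.31, 7.65, 8.20 and 6.32 in ADR, against 8.17, 6.55, 6.94, 8.17 and 6.08 in untreated cells. It was higher in all 5 lymphomas, by 0.02 in lymphoma_1032 and by 1.06 in lymphoma_5783, with overlapping groups and a mean of 0.55 ± 0.42 (1.47-fold; limma adjusted p = 0.565).

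Ddb2, which recognises UV lesions for the same repair pathway, was lower with ADR in 4 lymphomas. Its log2 signals were 6.70, 6.55, 6.90, 4.64 and 7.71 in ADR, against 7.34, 7.34, 7.34, 7.12 and 7.13 in untreated cells. The untreated arrays were almost equal, with a range of 0.22, and the ADR arrays spread over 3.08, with lymphoma_1032 far down and lymphoma_4936 above every untreated array. Averaged over the 5, Ddb2 differed by -0.76 ± 1.11 (limma adjusted p = 0.595), and a second Ddb2 probe set gave -1.76 in lymphoma_1032 and 1.01 in lymphoma_4936. Rrm2b, the p53-inducible ribonucleotide reductase subunit, was lower in lymphoma_5783 and lymphoma_1032, by -0.74 and -0.72, and higher by 0.16 to 0.30 in the other 3, and Xpc, the damage sensor of nucleotide excision repair, had a mean difference of 0.08 ± 0.25.

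All 7 metabolic and stress genes were higher on average in ADR, with a median log2 difference of 0.34, and 0 passed the threshold. The sestrins hold back mTORC1. Sesn1 was higher in 4 of 5 lymphomas, by 0.34 ± 0.35 on average (limma adjusted p = 0.577), and lower in lymphoma_1032, by -0.24. Sesn2 had log2 signals of 7.37, 6.57, 6.37, 6.98 and 7.77 in ADR, against 6.33, 6.37, 6.42, 7.12 and 7.74 in untreated cells. It differed most in lymphoma_5783, by 1.04, and its highest signals were those of lymphoma_4936 under both treatments. For Sesn2 the mean was 0.22 ± 0.48 (limma adjusted p = 0.731).

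Ddit4, also called Redd1, a further inhibitor of mTORC1 that answers to hypoxia and glucocorticoids as well, had log2 signals of 9.27, 8.93, 9.49, 9.75 and 9.26 in ADR, against 9.97, 7.49, 9.06, 10.57 and 9.47 in untreated cells. The lymphomas with low untreated signals were higher with ADR and those with high ones were lower, so that the range between lymphomas was 0.82 in ADR, against 3.08 in untreated cells. On average Ddit4 differed by 0.03 ± 0.93 (limma adjusted p = 0.986).

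Ephx1, the microsomal epoxide hydrolase, had log2 signals of 10.91, 8.62, 7.68, 9.36 and 6.93 in ADR, against 9.74, 6.90, 7.45, 9.08 and 7.40 in untreated cells. Lymphoma_5783 and lymphoma_7890 were higher by more than 2-fold, and lymphoma_4936 was lower with ADR, by -0.47. For Ephx1 the mean was 0.58 ± 0.86 (limma adjusted p = 0.602). Ak1, a cytosolic adenylate kinase, had 8.09, 5.35, 6.28, 7.49 and 4.73 in ADR, against 6.40, 5.42, 5.54, 6.54 and 4.62 in untreated cells. The 2 lymphomas with the highest untreated signals, lymphoma_5783 and lymphoma_1032, differed most, which is the opposite of Ddit4. The mean difference of Ak1 was 0.68 ± 0.71 (1.61-fold; limma adjusted p = 0.565).

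Dcxr, a carbonyl reductase of the glucuronate pathway, had log2 signals of 9.50, 8.12, 8.47, 9.59 and 7.64 in ADR, against 9.24, 7.05, 7.59, 9.43 and 7.39 in untreated cells. It was higher in all 5 lymphomas, most in lymphoma_7890 and lymphoma_9250, and the groups overlapped since lymphoma_5783 and lymphoma_1032 were high throughout. The Dcxr mean was 0.52 ± 0.42 (1.44-fold; limma adjusted p = 0.565). Rps27l, a ribosomal protein paralog that p53 induces, had 11.98, 12.06, 12.16, 12.06 and 11.79 in ADR, against 11.95, 11.82, 11.92, 12.01 and 11.49 in untreated cells. All 10 signals were close together and each lymphoma was higher with ADR, by 0.03 to 0.30, with overlapping groups. The mean difference was 0.17 ± 0.12 (1.13-fold; limma adjusted p = 0.644), the smallest of the 8 genes that were higher in all 5 lymphomas.

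The lymphomas themselves differed in the level of many p53 targets. By the moderated F test of the same limma fit, 12 of the 28 members differed between lymphomas at an adjusted p below 0.05, that is 42.9% of the members against 26.9% of all genes tested. These were Mdm2, Mdm4, Pmaip1, Apaf1, Fas, Phlda3, Polk, Ercc5, Sesn2, Ephx1, Ak1 and Dcxr, with adjusted p from 0.00331 for Fas to 0.0474 for Sesn2. With lymphoma_5783 and lymphoma_1032 both left out, a check chosen after seeing the data, 1 of the 28 members and 511 genes (4.78%) differed. Without lymphoma_1032 alone it was 8 of the 28 members and 1112 genes (9.99%). With any other single lymphoma left out, 9 or 10 members and 19.5% to 24.4% of genes differed.

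In untreated cells lymphoma_5783 and lymphoma_1032 had the highest levels. There 21 of the 28 members had their highest signal in one of these lymphomas (11 in lymphoma_5783 and 10 in lymphoma_1032), against 43.4% of all genes, and lymphoma_7890 was the highest for 0 members, against 18% of all genes, and the lowest for 12, against 15.4%. Set against each gene's own mean over the 10 arrays, the median member level in lymphoma_5783, lymphoma_7890, lymphoma_9250, lymphoma_1032 and lymphoma_4936 was 0.74, 0.00, 0.22, 0.17 and -0.14 in ADR, against 0.43, -0.67, -0.46, 0.29 and -0.43 in untreated cells. After ADR lymphoma_7890 and lymphoma_9250 thus stood below the untreated level of lymphoma_5783 and lymphoma_1032. The range between lymphomas was smaller in ADR than in untreated cells for 17 of the 28 members, or 60.7%, against 48.4% of all genes.

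**Figure D4:**
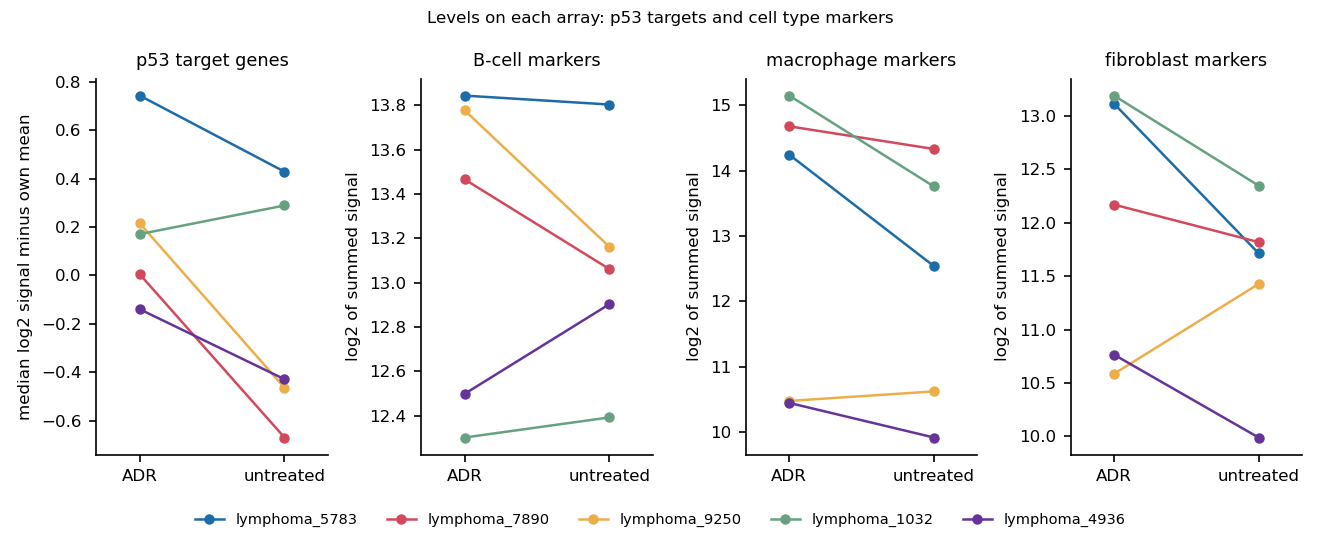
Levels on each array with ADR on the left and untreated on the right, 1 line per lymphoma: the median log2 signal of the 28 tested p53 target genes minus each gene's own mean over the 10 arrays, and the log2 of the summed signal of the B-cell, macrophage and fibroblast markers; the axes do not start at 0. Lymphoma_5783 and lymphoma_1032 have the highest p53 target levels in untreated cells, and they are also the 2 lymphomas whose macrophage markers differ most between ADR and untreated cells.

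Markers of other cell types also differed between the lymphomas. The median log2 difference of the 13 tested macrophage markers was 0.90, 0.23, -0.11, 1.04 and 0.03 in the 5 lymphomas, 12 of the 13 being higher on average. Over all 20 macrophage markers, the 7 that did not pass the filter included, it was 0.40, 0.10, -0.11, 0.66 and -0.02, 13 of the 20 being higher on average. Some of these 7 were lower with ADR in lymphoma_5783, where C1qa had 3.91 in ADR and 6.82 in untreated cells, Mrc1 4.70 and 7.64, and C1qb and C1qc differed by -2.40 and -1.30. The median of the 13 tested fibroblast markers was 0.73, 0.06, 0.18, 0.83 and 0.14, 10 of the 13 being higher. Col1a1, among the 3 that were lower on average, was lower in all 5 lymphomas, by -0.43 ± 0.13. Of the fibroblast markers that did not pass the filter, Col3a1, Postn and Lum differed by -1.83, -1.67 and -0.07 in lymphoma_5783. Pdgfra, with 5.90 in ADR and 3.90 in untreated cells, Thy1 and Pdgfrb were higher with ADR there. The medians of the tested markers were large in lymphoma_5783 and lymphoma_1032 and small in lymphoma_7890 and lymphoma_9250, where the p53 targets differed most. They were also small in lymphoma_4936, where the median p53 target difference was 0.09. The median of the tested B-cell markers was -0.16, 0.27, 0.52, -0.54 and -0.47. In untreated cells the log2 of the summed macrophage signal was highest in lymphoma_7890, with 14.33, against 12.54 in lymphoma_5783 and 13.76 in lymphoma_1032. The median p53 target level of untreated cells was lowest in lymphoma_7890, with -0.67. Some fibroblast markers were also high in the lymphomas with high p53 targets. Fn1, fibronectin, chosen as an example after its values were seen, had 10.50 and 10.05 in ADR and 9.14 and 9.20 in untreated cells of lymphoma_5783 and lymphoma_1032, whereas the other lymphomas had 7.23 to 7.55 in ADR and 6.91 to 7.23 in untreated cells. The log2 of the summed fibroblast signal was 13.12 and 13.19 in ADR and 11.71 and 12.35 in untreated cells of lymphoma_5783 and lymphoma_1032, against 10.58 to 12.17 in ADR and 9.99 to 11.82 in untreated cells of the others, so that the untreated sums overlapped. S100a4 made up most of the highest of these other untreated sums, with 11.46 in untreated lymphoma_7890. It had 8.87, 10.93, 11.68 and 7.87 in untreated lymphoma_5783, lymphoma_9250, lymphoma_1032 and lymphoma_4936. Sums without S100a4 were not taken, so the overlap need not hold for the other fibroblast markers. The part of other cells, the feeder cells included, in the levels of the p53 targets was not tested.

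The genes around p53 were looked at as 2 lists. Of the 26 tested genes of p53 and its upstream regulators, 10 were higher and 16 lower on average in ADR. The share of all genes tested that were higher was 44.8%. In this list 0 passed the threshold and the median difference was -0.05. The smallest p-values belonged to Pias1, a SUMO ligase (-0.44 ± 0.35, lower in 5 of 5 lymphomas), Rffl, a ubiquitin ligase (0.23 ± 0.07, higher in 5 of 5), and Chek1, a checkpoint kinase (-0.47 ± 0.55), with limma adjusted p of 0.565, 0.577 and 0.577. Atm, the kinase that signals DNA breaks, and Chek2, its effector, had mean differences of 0.00 each, and Chek2 differed by 1.22 in lymphoma_4936 and by -0.54 to -0.16 in the others. Cdkn2a, whose Arf product inhibits Mdm2, had log2 signals of 3.70, 4.32, 5.07, 1.87 and 8.46 in ADR, against 6.71, 3.58, 5.30, 1.96 and 8.66 in untreated cells. It differed between lymphomas (limma adjusted p = 0.00785), was highest in lymphoma_4936 under both treatments and had a difference of -3.01 in lymphoma_5783.

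Of the 44 tested p53 targets outside the members, 26 were higher and 18 lower on average in ADR. The share of all genes tested that were higher was 44.8%. In this list 0 passed the threshold and the median difference was 0.07. At an unadjusted p below 0.05 the limma fit had 8 of the 44 higher, against 3.97% of all genes tested. It had 3 of the 44 lower, against 4.52% of all genes tested. Cdkn1a, the CDK inhibitor p21, had log2 signals of 11.84, 10.63, 10.61, 12.19 and 9.34 in ADR, against 11.45, 9.27, 10.14, 11.92 and 8.85 in untreated cells. It was higher in all 5 lymphomas, by 0.60 ± 0.43 (1.51-fold; limma adjusted p = 0.565), and it too was highest in lymphoma_5783 and lymphoma_1032. Slc19a2, a thiamine transporter, was higher by 0.62 ± 0.29 in 5 of 5 lymphomas, and Psrc1, a microtubule regulator, by 1.14 ± 0.96 in 4 of 5, both with a limma adjusted p of 0.565. Gadd45a, a stress sensor, had a mean difference of -0.11 ± 0.98, with 0.79 and 0.87 in lymphoma_7890 and lymphoma_1032 and -0.98 and -1.24 in lymphoma_5783 and lymphoma_4936. Bax is not analysed here.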

How the data were processed

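RNA of 10 samples, 5 lymphomas with and without ADR, was hybridised to Affymetrix mouse expression arrays. Per the submitters' processing notes, RMA and Partek were used for the deposited table, which holds log2 signals, 1 per probe set and array. Their versions and settings were not given in the sources used here, and the log base was read from the range of the values. The main setting added no further normalization.

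Of 45101 probe sets, 34945 had exactly 1 gene symbol, and each gene took the one with the highest mean signal. A gene was tested if its signal exceeded the table's median (4.43) on at least 5 of 10 arrays, which left 11472 genes. The difference of ADR minus untreated was estimated in limma 3.58.1 (R 4.3.3) by lmFit with a lymphoma block, followed by eBayes. Tests were two-sided, with Benjamini-Hochberg adjustment over all genes tested and a threshold of 0.05. The block was used because same-numbered arrays came from the lymphoma of 1 animal, per the labels. Within pairs, the deviations of genes from their group means had correlations of 0.515 to 0.791. Differences between lymphomas were tested with the moderated F of the same fit. The 5 arrays per group limit the precision. No hybridisation dates were used here, so array batches were not checked.

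The members and gene lists were chosen with earlier results of these data known. Signals on every array are printed for members with 1 sign in all 5 lymphomas or a difference of at least 1 in size in some lymphoma, and for Cdkn1a and Cdkn2a. Perp was added after its values were seen. Outside the members, a fixed set of well-known genes and the 3 genes of each list with the smallest p are named. The alternatives were a fit with no block, another filter or none, averaged probe sets, quantile normalization or centring, a trended prior, array weights and the omission of lymphomas. Promoter sequences are from RefSeq (GRCm38.p6). Tables and plots were made with Python 3.11.15, pandas 2.3.3 and matplotlib 3.10.9.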

Additional observations from a re-analysis of the deposited data

Results flagged for a closer look

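In each of 90 sets of 5 values, the ADR signals, the untreated signals or the differences of a member, the highest and lowest values were set against the others by Dixon's test, and 2 sets had a value that stood apart, where chance gives about 1 in 20. The untreated Perp signal of lymphoma_4936 was 7.14, while the other untreated signals lay between 2.40 and 3.03. The Tob1 difference of lymphoma_4936 was -0.053, while the other lymphomas lay between 0.53 and 0.75.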

How the results depend on the processing

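Under all 14 alternatives 0 genes and 0 members passed the threshold in limma, with smallest adjusted p from 0.147 (without lymphoma_4936) to 1.00, and the median member difference stayed between 0.29 and 0.53. The number of members higher at an unadjusted p below 0.05 in limma was 12 in the paired fit, against 3.97% of all genes. It was 1 without the replicate block, against 0.54% of all genes. When 1 lymphoma was left out it was 5 to 14 (6 without lymphoma_7890 and 5 without lymphoma_9250), against 1.94% to 4.93% of all genes. The genes that differed between lymphomas numbered 3089 (26.9%), and 1112 to 2730 when 1 lymphoma was left out. The 1112, or 9.99%, were those without lymphoma_1032. Members that differed numbered 12 with all lymphomas and 8 to 10 when 1 was left out. Without lymphoma_5783 and lymphoma_1032, 511 genes (4.78%) and 1 member differed. Every omission leaves fewer arrays. Of 392 member differences under the alternatives, 385 kept their sign and 24 members kept it throughout. Part of this count was fixed in advance. Dropping the block, changing the filter and the trended prior left every member difference as in the main fit. Ppm1d was -0.069 when all its probe sets were averaged and -0.031 to 0.17 with 1 lymphoma left out. Xpc was -0.012 to 0.16 and Ddit4 -0.33 to 0.24 with 1 lymphoma left out. Without lymphoma_5783 and lymphoma_1032, Rrm2b was 0.22 and Xpc -0.012. For the changes of sign the cause was not tested. Pairing changed no other call.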
